A study of Homo sapiens with 6 samples.

Results

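The genes described here encode the cytoplasmic dynein motors, their cofactor dynactin, the LIS1 and NDE1 regulators and a set of cargo adaptors. They are 35 of the 58735 genes in the deposited count table, taken by an exact match of the gene name. The counts are from bulk RNA-seq of RPE-1, an immortalised human retinal pigment epithelial cell line, in 6 libraries. All 6 came from the same line, which carries GFP-tagged CETN2 to mark centrioles and the kinase PLK4 behind a doxycycline-inducible promoter, and all were given doxycycline at 1 µg/mL. The siControl group (3 libraries) received a scrambled siRNA and the siSON group (3 libraries) an siRNA against SON, a splicing factor of nuclear speckles. The labels do not say whether the line is 1 clone, when RNA was taken, or whether replicates were separate cultures, so the p-values measure the spread between these libraries, which may be technical. The comparison asks how the abundance of these mRNAs differed when SON was depleted while PLK4 was induced.

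Cytoplasmic dynein 1 is the main motor that carries cargo toward the minus ends of microtubules. Its heavy chains hold the motor domain, and its intermediate, light intermediate and light chains form the tail that binds cargo. Dynactin, a complex built on a short actin-like filament, together with an adaptor on the cargo, switches dynein into a processive motor, while LIS1 and its partners NDE1 and NDEL1 help to assemble that machine. In cycling cells the same motor gathers the Golgi and endosomes around the centrosome, carries centriolar satellites and acts at spindle poles and kinetochores. A separate motor, dynein 2, carries intraflagellar transport trains back from the ciliary tip.

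Of the 35 genes, 33 passed the filter on low counts, 26 were called changed at an adjusted p under 0.05 (edgeR quasi-likelihood test, Benjamini-Hochberg over 16591 genes), 14 were higher and 12 were lower. The same test called 71.7% of all genes tested, with 35.2% higher and 36.5% lower, so the share of these genes called (78.8%) was near that of the table. Among the calls, 7 were at least 2-fold (WDR34, DCTN2, ACTR1B, HOOK2 and RILP lower, DYNC1I1 and NDEL1 higher), against 29.3% of all genes tested. The values of the 2 groups did not overlap for 27 of the 33, against 75.1% of all genes tested. The median log2 difference was 0.09 over the 33 genes and -0.03 over all genes tested, and the range ran from -2.57 to 1.63. DYNLRB2 had 29, 2 and 15 counts in the control libraries and 0, 8 and 2 in the siSON libraries, HOOK1 had 1 count in all 6 together, and neither was tested.

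Levels are CPM, a gene's share of its library's counts in edgeR's usual units, with library totals scaled by TMM factors. With library size alone the median of all genes moved by -0.20 on the log2 scale and with cyclic loess by 0.14. Under either scaling 11 of these genes were called higher and 14 lower, in place of 14 and 12. Over all genes 5834 rose and 6054 fell, while scaling by library totals gave 4441 rises and 7351 falls and cyclic loess 6037 and 5629. All 12 lower calls and 10 of the 14 higher calls held in each of 14 alternative analyses that tested the gene. The other 4 higher calls, DYNLRB1, DYNC2LI1, ACTR1A and BICD2, are described below with the setting that ended them. The bulk counts cannot tell a change in RNA per cell from a change in the mix of cells.

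**Figure D1:**
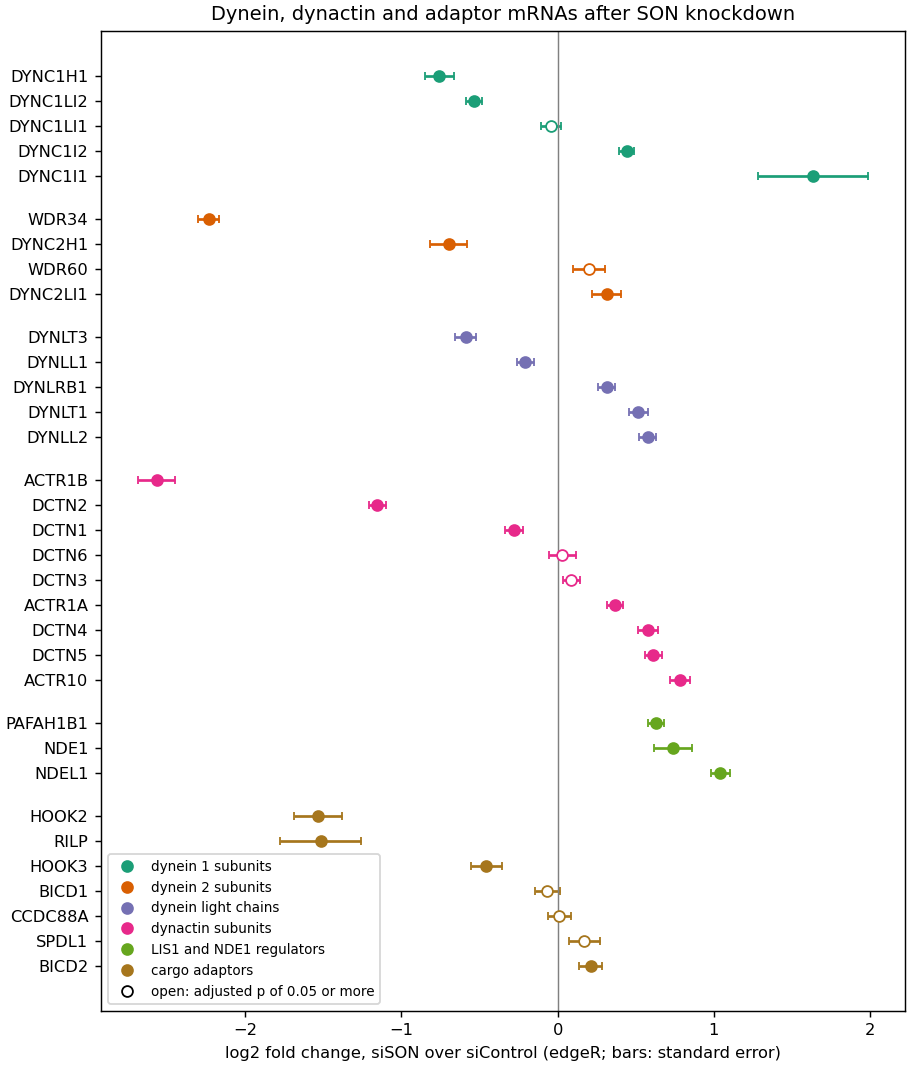
Log2 difference in level, siSON minus siControl, for each of the 33 genes tested, with its standard error, grouped by role in the motor complexes. ACTR1B and WDR34 lie farthest below 0, DYNC1I1 and NDEL1 farthest above it, and each group other than LIS1 and NDE1 has genes called in both directions.

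Library totals ran from 54572365 to 69764836 counts, and 3 counts correspond to between 0.0402 and 0.059 CPM. SON fell from 297 ± 14.5 to 67.6 ± 2.49 CPM (SD, n = 3 libraries in each group), 22.8% of control. PLK4 was 177 CPM in the control and 138 CPM in the siSON libraries (log2 difference -0.36, adjusted p = 0.0143). CETN2 was higher (log2 difference 0.38, adjusted p = 5.89e-05) except under cyclic loess scaling. Of 7 retinal pigment epithelium markers, TYR had no count, RPE65 and RLBP1 stayed at or below 0.258 CPM, and the list summed to 85.1 to 93.2 CPM in control and 192 to 224 CPM in siSON libraries. Most of that rise was PAX6, at 39.8 ± 3.47 and 127 ± 14.0 CPM, whereas RPE65 had 18, 6 and 6 counts in control and 0 in every siSON library. The epithelial keratins KRT8 and KRT18 summed to 764 to 863 CPM and 1331 to 1392 CPM. Markers of leukocytes, endothelium and neurons (6 genes) summed to 2.49 to 3.53 CPM and 0.649 to 1.21 CPM, with CD3E and RBFOX3 at 0 counts. The part of these shifts in the results below was not tested.

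In the dynein 1 motor itself the heavy chain and 1 light intermediate chain were lower, and both intermediate chains were higher. DYNC1H1, which encodes the heavy chain with the motor domain (ENSG00000197102, chromosome 14, 101964510 to 102056443, plus strand, GRCh38, 78 exons), stood at 869, 708 and 654 CPM in the control libraries and at 424, 458 and 436 CPM in the siSON libraries. Every siSON library lay below every control library, and the controls were the more spread group. The siSON mean was 59.1% of control (log2 difference -0.76, SE 0.09, adjusted p = 2.83e-05). Annotated genes lie within it on the opposite strand, and whether counting used strand is not given in the sources used here. Of the 35 genes 21 overlap another annotated gene, 8 of them on the same strand. WDR34 lies opposite SPTAN1, DCTN2 opposite MBD6 and ACTR10 opposite ARMH4, while DCTN6 shares its strand with LEPROTL1.

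DYNC1I2, the widely expressed intermediate chain through which the tail meets dynactin, was 159, 167 and 173 CPM in control and 227, 227 and 224 CPM in siSON libraries. The groups were apart, and the rise was modest (log2 difference 0.44, SE 0.05, adjusted p = 1.03e-05). Its size depended on scaling, at 0.13 with cyclic loess (adjusted p = 0.0353). DYNC1I1, the paralog best known from neurons, was scarce in control libraries at 0.315, 0.377 and 0.161 CPM (22, 24 and 12 counts), and was 0.879, 0.776 and 0.984 CPM in siSON libraries. The log2 difference of DYNC1I1 was 1.63 (SE 0.35, adjusted p = 0.00146), yet per kilobase of transcript the siSON level was 0.298 CPM per kb beside 86.8 for DYNC1I2. The largest fold rise among these genes was thus on a transcript that made up 0.343% of the intermediate chain pair per kb after knockdown.

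The light intermediate chains, which hold the adaptors, did not move alike. DYNC1LI2 was 168, 166 and 161 CPM in control and 113, 119 and 109 CPM in siSON libraries, a separation well beyond the spread in either group (log2 difference -0.53, SE 0.05, adjusted p = 4.00e-06). DYNC1LI1 was 44.4 ± 2.25 CPM in control and 43.2 ± 1.82 CPM in siSON libraries, with overlapping groups (log2 difference -0.04, adjusted p = 0.584). It was called lower with library size alone (-0.24, adjusted p = 0.00832) and with cyclic loess (-0.15, adjusted p = 0.0452).

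Each of the 5 light chain genes tested passed the threshold: 3 rose and 2 fell, none by 2-fold, where 71.7% of all genes tested passed it. DYNLL2 rose from 76.5 ± 2.39 to 114 ± 4.24 CPM (log2 difference 0.58, SE 0.05, adjusted p = 2.63e-06), while its paralog DYNLL1, a hub that also binds many proteins outside dynein, fell from 258 ± 4.79 to 224 ± 11.1 CPM (log2 difference -0.21, SE 0.05, adjusted p = 0.0039). DYNLL1 has 7 annotated pseudogenes, DYNLL1P1 to DYNLL1P7, so its counts may be split between copies. DYNLT1 rose from 45.5 ± 0.65 to 65.2 ± 3.13 CPM and DYNLT3, of the same Tctex family, fell from 40.0 ± 1.67 to 26.6 ± 1.19 CPM. The log2 differences of DYNLT1 and DYNLT3 were 0.52 (SE 0.06, adjusted p = 1.26e-05) and -0.59 (SE 0.07, adjusted p = 1.33e-05), so both families held a member in each direction. DYNLRB1, the roadblock chain, was 123 ± 4.72 CPM in control and 153 ± 5.44 CPM in siSON libraries (log2 difference 0.31, SE 0.05, adjusted p = 0.00028). That call was lost with library size alone (0.12, adjusted p = 0.0593) and with cyclic loess (0.04, adjusted p = 0.553).

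In dynein 2, the ciliary retrograde motor, the intermediate chain WDR34 was among the most reduced of the 33 genes and its partner chain was not called. WDR34 (ENSG00000119333, chromosome 9, 128633661 to 128656787, minus strand, 9 exons) was 127, 132 and 136 CPM in control and 25.6, 28.8 and 29.7 CPM in siSON libraries. No siSON library came near the control range. The siSON mean was 21.3% of control (log2 difference -2.23, SE 0.07, adjusted p = 1.33e-09). WDR60, the intermediate chain that pairs with it, was 18.5, 18.6 and 18.1 CPM in control and 24.2, 20.9 and 18.1 CPM in siSON libraries, so the groups overlapped (log2 difference 0.20, SE 0.10, adjusted p = 0.098). Without siSON replicate 3, the lowest of its group, WDR60 was called higher (0.31, adjusted p = 0.0132).

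DYNC2H1, the dynein 2 heavy chain, was 63.3, 57.8 and 45.9 CPM in control and 38.2, 34.3 and 30.4 CPM in siSON libraries. The groups did not overlap, with the spread largest in control (log2 difference -0.70, SE 0.12, adjusted p = 0.000353). DYNC2LI1, its light intermediate chain, was 14.1, 14.3 and 15.4 CPM in control and 20.0, 16.6 and 17.9 CPM in siSON libraries (log2 difference 0.31, SE 0.09, adjusted p = 0.00889). The DYNC2LI1 call was lost with library size alone (0.12, adjusted p = 0.263) and without siControl replicate 2 (0.28, adjusted p = 0.0511). Counts of the 4 dynein 2 genes together fell from 220 ± 4.62 to 102 ± 5.92 CPM, a sum in which WDR34 was the largest term in the control libraries.

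Dynactin showed the widest split. Of its 9 subunit genes, DCTN4, DCTN5, ACTR1A and ACTR10 rose, DCTN1, DCTN2 and ACTR1B fell, and DCTN3 and DCTN6 were not called. With TMM scaling the counts of all 9 genes together were 1087 ± 24.0 CPM in control and 1112 ± 30.4 CPM in siSON libraries. On that scale the sum overlapped between groups while single subunits moved by as much as 2.57 on the log2 scale. The sum was not computed under other scalings, and library size alone moved the median of all genes by -0.20.

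ACTR1A and ACTR1B encode the closely related actin-like proteins of the dynactin filament, and they moved in opposite directions. The 250 bases before their starts in RefSeq (GRCh38.p14) are shown because this pair gave the largest shift in balance among the paralogs. They lie at chr10:102502713-102502962 and chr2:97664045-97664294, both on the minus strand, and are written 5′ to 3′ on the gene's strand. RefSeq starts differ from the GENCODE spans given with the genes, so the ACTR1B window overlaps the start of its span. Capitals mark matches on either strand. The GC box was searched as GGGCGG. The box named for its letters CCAAT was searched next, and last the core site of the transcription factor NRF1 as GCATGCGC. Matches could overlap.
ACTR1A: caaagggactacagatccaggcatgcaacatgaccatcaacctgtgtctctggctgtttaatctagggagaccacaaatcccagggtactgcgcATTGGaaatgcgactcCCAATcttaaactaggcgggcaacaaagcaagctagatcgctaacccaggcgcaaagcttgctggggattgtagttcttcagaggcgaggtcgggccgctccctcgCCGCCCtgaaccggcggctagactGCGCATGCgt
ACTR1B: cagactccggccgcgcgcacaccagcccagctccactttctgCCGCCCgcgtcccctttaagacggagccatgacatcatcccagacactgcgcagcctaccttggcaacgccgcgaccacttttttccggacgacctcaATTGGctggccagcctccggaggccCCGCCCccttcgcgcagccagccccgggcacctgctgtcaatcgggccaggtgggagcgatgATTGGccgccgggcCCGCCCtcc

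The ACTR1A window held 1 GC box, 2 CCAAT boxes and 1 NRF1 core, at 55.6% GC. The ACTR1B window held 3 GC boxes, 2 CCAAT boxes and no NRF1 core, at 68.8% GC. Over 35116 promoters of this length in the RefSeq table, 42.6% held a GC box, 32.0% a CCAAT box and 2.63% an NRF1 core. Among 44 promoters of the 31 genes matched here, 31 held a GC box (70.5%), 17 a CCAAT box (38.6%) and 3 an NRF1 core (6.82%). Median GC was 64.2% in those 44 and 58% in the whole table. The 35116 promoters were not limited to genes expressed in these cells, so the shares are not matched for expression. The matches describe letters in the window, not bound sites.

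ACTR1B (ENSG00000115073, chromosome 2, 97655963 to 97664107, minus strand, 11 exons, no other annotated gene within its span) was 57.9, 56.3 and 58.8 CPM in control and 7.98, 11.9 and 9.36 CPM in siSON libraries. It had the lowest fitted difference of the 33 genes, with 16.9% of the control level left (log2 difference -2.57, SE 0.12, adjusted p = 1.55e-08). ACTR1A was 293, 299 and 312 CPM in control and 374, 379.7 and 411 CPM in siSON libraries. All siSON libraries were above all control libraries (log2 difference 0.37, SE 0.05, adjusted p = 7.48e-05). That rise depended on scaling: it was 0.17 with library size alone (adjusted p = 0.0147) and 0.0015 with cyclic loess (adjusted p = 0.980).

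Per kilobase of transcript, ACTR1A was the more abundant paralog throughout, at 106 ± 3.35 CPM per kb beside 25.7 ± 0.565 for ACTR1B in control. ACTR1A made up 80.5% ± 0.411 of the pair per kb in control and 96.9% ± 0.639 in siSON libraries. With TMM scaling their sum was 129, 131 and 136 CPM per kb in control. In siSON libraries the sum was 136, 139.5 and 149 CPM per kb. The lowest siSON sum lay within the control range, and the sum was not computed under other scalings.

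The shoulder of dynactin links the filament to the arm that touches dynein. DCTN2, which encodes the shoulder protein dynamitin (ENSG00000175203, chromosome 12, 57530102 to 57547331, minus strand, 16 exons), was 208, 202 and 222 CPM in control and 91.4, 96.3 and 96.1 CPM in siSON libraries. The groups were far apart relative to their spread (log2 difference -1.15, SE 0.05, adjusted p = 1.42e-08), and the siSON mean was 44.9% of control. DCTN1, whose product forms the projecting arm that binds microtubules and the dynein intermediate chain, was 213, 193 and 202 CPM in control and 157, 169 and 173 CPM in siSON libraries. The fall of DCTN1 was smaller but outside the spread (log2 difference -0.28, SE 0.06, adjusted p = 0.00106). The remaining shoulder gene, DCTN3, was 55.8, 55.7 and 55.4 CPM in control and 59.8, 58.8 and 58.7 CPM in siSON libraries. Its groups did not overlap, yet the difference did not pass the test (log2 difference 0.09, SE 0.05, adjusted p = 0.165), and it was -0.11 with library size alone and -0.07 with cyclic loess.

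The pointed end of the filament, where cargo adaptors dock, is capped by the products of ACTR10, DCTN4, DCTN5 and DCTN6. ACTR10 rose most, from 46.7, 50.9 and 51.5 CPM to 85.9, 81.3 and 89.5 CPM (log2 difference 0.78, SE 0.06, adjusted p = 7.10e-07). DCTN5 rose from 109 ± 3.77 to 167 ± 5.69 CPM (log2 difference 0.61, SE 0.05, adjusted p = 1.18e-06) and DCTN4 from 81.4 ± 2.27 to 122 ± 8.91 CPM (log2 difference 0.58, SE 0.06, adjusted p = 7.35e-06). DCTN6 was 19.5 ± 0.971 CPM in control and 19.9 ± 1.75 CPM in siSON libraries, with overlapping groups (log2 difference 0.03, adjusted p = 0.768).

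On the per-length scale the order of the dynactin subunits in control was DCTN2 (126 CPM per kb), ACTR1A (106), DCTN3 (68.9), DCTN1 (45.0), ACTR1B (25.7), ACTR10 (20.5), DCTN4 (19.4), DCTN6 (17.3) and DCTN5 (9.92). ACTR10 and DCTN4 were the closest neighbours in that order, at 20.5 ± 1.08 and 19.4 ± 0.54 CPM per kb. After knockdown ACTR1A was highest at 137 ± 7.04 CPM per kb, DCTN3 next at 73.2 ± 0.751 followed by DCTN2 at 56.4 ± 1.65, while ACTR1B was last at 4.35 ± 0.888. The value of DCTN5 rests on a principal transcript of 11011 bases, so its place in the order depends on that choice.

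**Figure D2:**
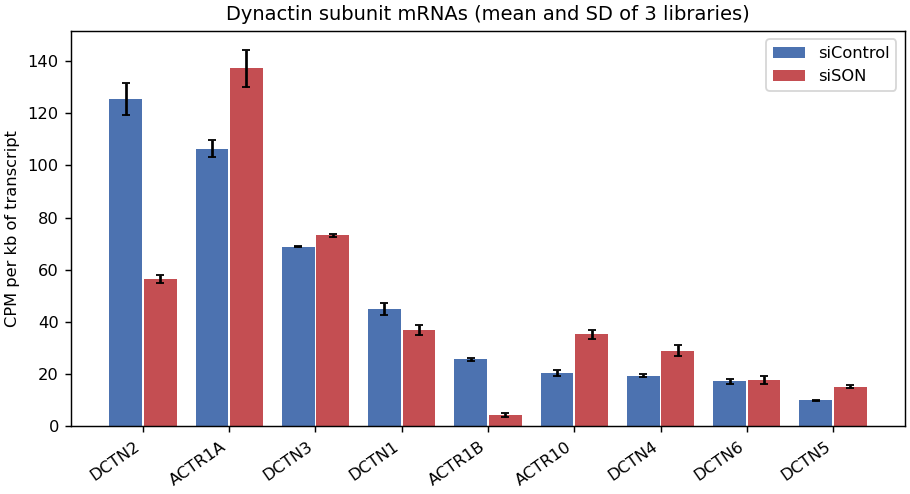
Level of each dynactin subunit mRNA in CPM per kb of its principal transcript, as the mean of 3 libraries with the SD, for siControl and siSON. DCTN2 falls from 126 to 56.4 and ACTR1B from 25.7 to 4.35, while ACTR1A, DCTN4, DCTN5 and ACTR10 are higher in siSON.

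The 3 genes of the LIS1 and NDE1 group were all called higher, beside 71.7% of all genes tested called and 35.2% called higher. PAFAH1B1 encodes LIS1, which opens the autoinhibited form of dynein, and NDE1 and NDEL1 encode related coiled-coil proteins that bring LIS1 to the motor. The windows of 250 bases before their RefSeq starts are shown because all 3 genes rose, with capitals marking the same motifs. They lie on the plus strand of GRCh38.p14 at chr17:2593404-2593653 for PAFAH1B1, at chr16:15643132-15643381 and chr16:15649995-15650244 for NDE1, which has a pair of entries, and at chr17:8435634-8435883 for NDEL1. The PAFAH1B1 and NDEL1 windows and the downstream NDE1 window lie inside the GENCODE span of the gene, and the upstream NDE1 window overlaps its start.
PAFAH1B1: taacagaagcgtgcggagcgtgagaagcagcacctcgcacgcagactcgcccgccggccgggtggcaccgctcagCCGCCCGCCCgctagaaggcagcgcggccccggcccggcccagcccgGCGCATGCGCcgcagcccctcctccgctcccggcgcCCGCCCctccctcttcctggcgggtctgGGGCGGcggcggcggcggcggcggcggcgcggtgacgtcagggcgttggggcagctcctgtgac
NDE1, upstream start: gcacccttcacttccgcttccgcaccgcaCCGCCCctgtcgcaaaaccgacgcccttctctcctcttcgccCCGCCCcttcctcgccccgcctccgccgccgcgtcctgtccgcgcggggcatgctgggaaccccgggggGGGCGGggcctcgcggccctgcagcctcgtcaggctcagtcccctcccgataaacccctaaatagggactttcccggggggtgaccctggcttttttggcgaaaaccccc
NDE1, downstream start: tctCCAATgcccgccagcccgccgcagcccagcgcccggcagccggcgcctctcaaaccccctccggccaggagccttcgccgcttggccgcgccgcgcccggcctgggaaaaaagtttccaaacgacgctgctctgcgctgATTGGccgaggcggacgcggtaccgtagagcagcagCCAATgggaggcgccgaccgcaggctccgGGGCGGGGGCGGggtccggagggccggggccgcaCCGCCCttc
NDEL1: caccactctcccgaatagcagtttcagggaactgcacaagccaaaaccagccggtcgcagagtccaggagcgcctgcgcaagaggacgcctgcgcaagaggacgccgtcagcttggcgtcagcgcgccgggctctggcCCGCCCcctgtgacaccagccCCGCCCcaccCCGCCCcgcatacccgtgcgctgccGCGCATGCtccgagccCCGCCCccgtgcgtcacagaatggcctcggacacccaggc

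The PAFAH1B1 and NDEL1 windows each held 4 GC boxes and no CCAAT box, at 78.8% and 70.4% GC. The upstream NDE1 window held 3 GC boxes and no CCAAT box, and the downstream one 3 of each, at 70.4% and 74.8% GC. The NRF1 core was present once in NDEL1 and, in PAFAH1B1, as a stretch in which the matches on the 2 strands overlap, and neither NDE1 window held it. The windows of ACTR1A, PAFAH1B1 and NDEL1 were the 3 with that core among the 44. None of the 6 windows shown held the ETS letters CCGGAAG, found in 8.52% of all promoters, or TATAAA, found in 10.7%.

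NDEL1 (ENSG00000166579, chromosome 17, 8413131 to 8490411, plus strand) was 50.7, 52.2 and 53.9 CPM in control and 101, 110.4 and 111 CPM in siSON libraries. The siSON mean was 2.06 times control, and the groups were far apart (log2 difference 1.04, SE 0.06, adjusted p = 5.38e-08). PAFAH1B1 (ENSG00000007168, chromosome 17, 2593210 to 2685615, plus strand) was 122, 124 and 125 CPM in control and 187, 186 and 200.4 CPM in siSON libraries. The spread in control was small beside the rise (log2 difference 0.63, SE 0.05, adjusted p = 7.08e-07). NDE1 was the most variable of the group, at 31.6, 39.9 and 41.7 CPM in control and 54.7, 62.1 and 71.9 CPM in siSON libraries, still without overlap (log2 difference 0.74, SE 0.12, adjusted p = 0.00026). The 3 rises kept their call with library size alone and with cyclic loess. NDEL1 then fell short of 2-fold, with a log2 difference of 0.84 under either scaling. It was 0.98 with a mean count of at least 50 and 0.99 without siControl replicate 1. NDE1 lies opposite MYH11 and NDEL1 opposite MYH10, so reads of these neighbours cannot be separated if counting ignored strand. NDE1 also shares its strand with MIR484, where counting by strand does not separate reads.

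Among the 7 adaptor genes tested, HOOK2, HOOK3 and RILP fell, BICD2 was called higher, and BICD1, SPDL1 and CCDC88A were not called. HOOK2, one of the Hook family that joins dynein to endosomes and the centrosome, was 12.1, 11.1 and 11.1 CPM in control and 4.98, 3.63 and 3.17 CPM in siSON libraries. The siSON mean was 34.4% of control (log2 difference -1.53, SE 0.15, adjusted p = 3.57e-06). The annotated span of HOOK2 overlaps several genes, PRDX2 and RTBDN on its own strand and JUNB on the other. HOOK3, which also binds centriolar satellites, was 44.6, 54.2 and 45.6 CPM in control and 30.4, 37.5 and 37.4 CPM in siSON libraries (log2 difference -0.46, SE 0.10, adjusted p = 0.00162). With HOOK1 at 0 counts in every control library, both Hook genes measured in these cells were lower after knockdown.

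RILP, the adaptor that couples Rab7 on late endosomes and lysosomes to dynein, was scarce and fell further. It was 2.25, 1.84 and 1.95 CPM in control and 0.448, 0.931 and 0.748 CPM in siSON libraries, all above the level that 3 counts represent. The log2 difference was -1.52 (SE 0.26, adjusted p = 0.000279), with the widest error of the lower calls.

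BICD2, an adaptor for Golgi-derived vesicles and for the nuclear envelope, was 65.0, 72.7 and 75.8 CPM in control and 77.0, 81.5 and 88.9 CPM in siSON libraries. The rise was small (log2 difference 0.21, SE 0.07, adjusted p = 0.0235) and did not hold. The adjusted p was 0.146 without siControl replicate 1 (log2 difference 0.13), 0.0734 without siControl replicate 2 (0.21) and 0.0826 without siSON replicate 3 (0.17). The difference was 0.16 with a mean count of at least 50 (adjusted p = 0.0725), 0.0151 with library size alone (adjusted p = 0.869) and 0.0091 with cyclic loess (adjusted p = 0.912). BICD1 was 26.0 ± 1.04 and 24.9 ± 2.2 CPM (log2 difference -0.07, adjusted p = 0.489), and was called lower with library size alone (-0.26, adjusted p = 0.0157). CCDC88A, the girdin gene, was 131 ± 13.8 and 132 ± 4.66 CPM (log2 difference 0.01, adjusted p = 0.895), and was called lower only with cyclic loess (-0.26, adjusted p = 0.00991).

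SPDL1 encodes Spindly, the adaptor that recruits dynein to kinetochores. It was 81.0, 85.6 and 86.2 CPM in control and 77.6, 102.8 and 104 CPM in siSON libraries. In the siSON group replicate 1 lay below all 3 controls and the other 2 libraries above them, and the difference did not pass the test (log2 difference 0.17, SE 0.10, adjusted p = 0.147). Without that library SPDL1 was called higher (0.31, adjusted p = 0.00025).

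**Figure D3:**
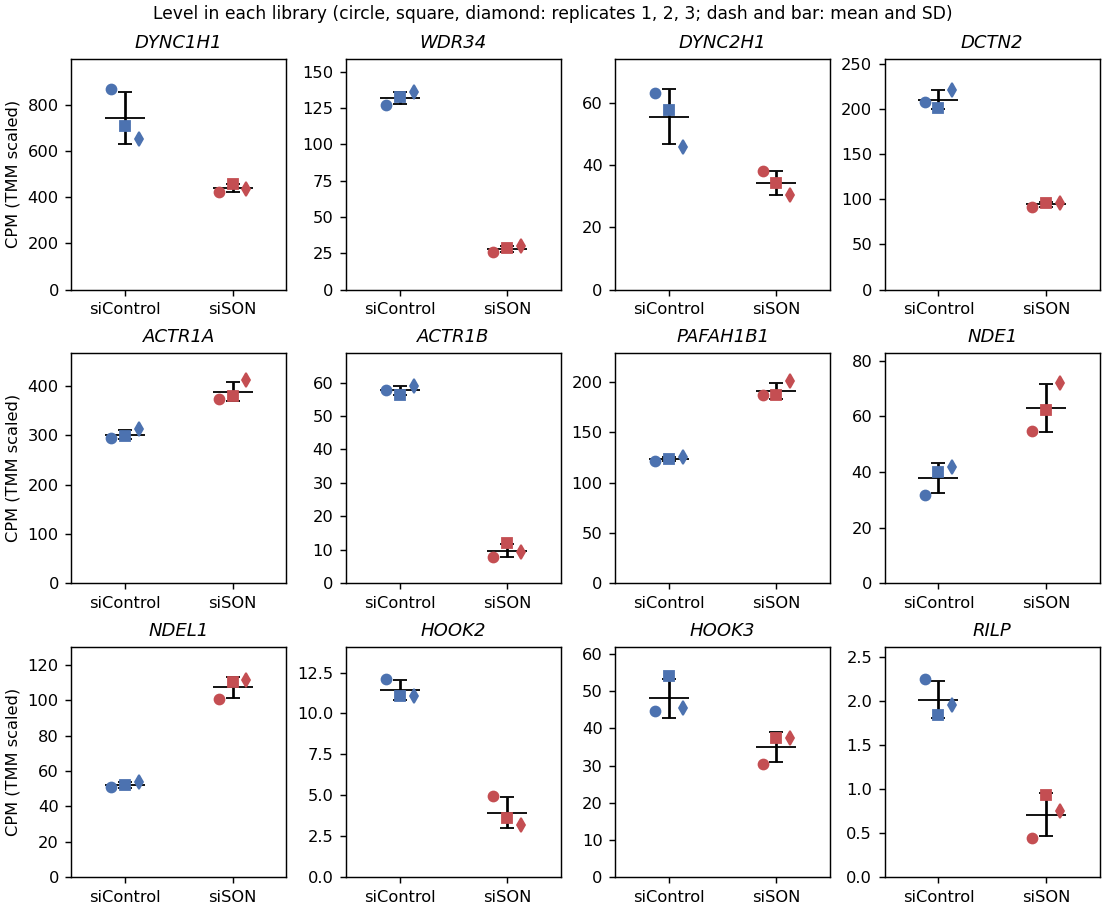
Level in CPM (vertical axes from 0) of 12 of the genes in each of the 6 libraries, with circle, square and diamond for replicates 1, 2 and 3 and a dash and bar for the mean and SD. WDR34, DCTN2 and ACTR1B sit far below control in all 3 siSON libraries, NDEL1 and PAFAH1B1 above it, and no gene shown has overlapping groups.

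The balance within paralog pairs does not depend on a single scaling factor per library, because both genes are read from the same library. Cyclic loess varies with level, so it can change the balance, and the ratios were not computed under it. With cyclic loess the log2 differences of BICD1 and BICD2 were -0.066 and 0.0091. For single genes, the groups did not overlap in 75.1% of all genes tested, and ratios of other gene pairs were not computed. Of 10 pairs listed, 8 had counts enough for a ratio, and the siSON and control ratios did not overlap in 7 of them. Each of those 7 gave the smallest p that 3 libraries against 3 can give (0.1, 2-sided exact permutation test, 0.114 adjusted over the 8 pairs), so this test could not reach 0.05 for any pair. The log2 ratio of ACTR1A to ACTR1B shifted most, from 2.38 ± 0.04 to 5.33 ± 0.30, a difference of 2.95. DYNLT1 over DYNLT3 shifted by 1.10, from 77.7% to 88.2% of the pair per kb of transcript. DYNLL1 over DYNLL2 shifted by -0.78, though DYNLL1 stayed the dominant partner at 96.6% and then 94.3% per kb. Those percentages rest on principal transcripts of 814 bp for DYNLL1 and 6805 bp for DYNLL2.

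The light intermediate chain pair moved toward DYNC1LI1, from 32.7% ± 1.57 to 40.6% ± 1.98 of the pair per kb (log2 ratio difference 0.49). HOOK2 over HOOK3 moved by -1.11, from 57.6% ± 3.52 to 38.9% ± 8.36 per kb, although both fell. That share rests on principal transcripts of 2513 bp for HOOK2 and 14398 bp for HOOK3. In CPM HOOK3 was the higher in both groups, at 48.1 beside 11.4 in control and 35.1 beside 3.92 in siSON libraries. BICD1 over BICD2 moved by -0.28, and DYNC1I1 over DYNC1I2 by 1.24 with few DYNC1I1 counts. NDE1 over NDEL1 was the pair whose groups overlapped (difference -0.30, p = 0.2, 2-sided exact permutation test).

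**Figure D4:**
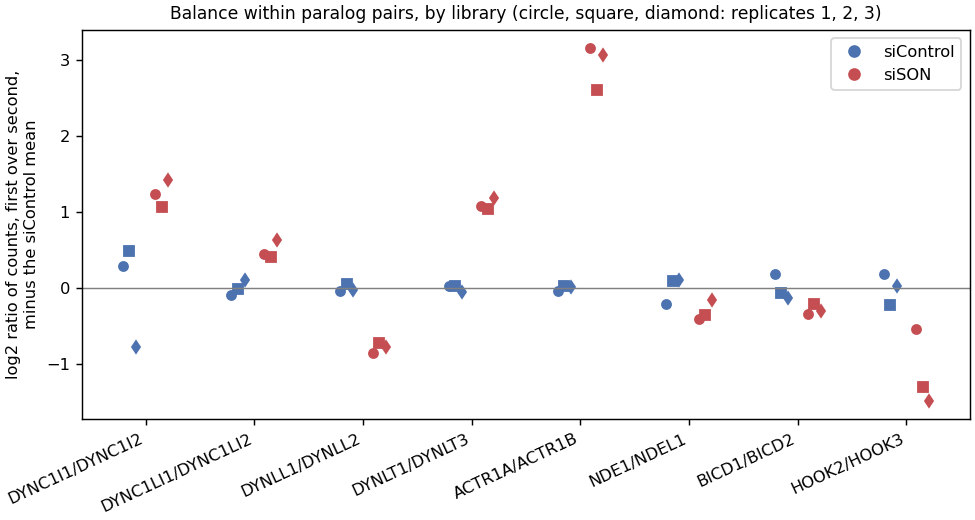
Log2 ratio of counts, first gene over second, minus the siControl mean, for 8 paralog pairs, with 1 symbol per library (circle, square and diamond for replicates 1, 2 and 3). The siSON points of ACTR1A/ACTR1B lie highest, about the mean shift of 2.95, and those of NDE1/NDEL1 reach into the control range.

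Gene structure was not used to choose these genes, and it is given as a description without a test. The 12 lower genes had a median transcript GC content of 52.5% and a median intron length (median of each gene's own median) of 393 bp. The 14 higher genes were at 46.7% and 2601 bp, and the 7 not called at 41.3% and 2318 bp. Across all genes tested the same values were 52.5% and 1364 bp for lower genes and 47.4% and 2176 bp for higher genes.

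Of the 33 genes, 7 had a median intron under 500 bp, a limit chosen after the values were seen: HOOK2 (106.5 bp), DCTN1 (244 bp), RILP (286 bp), ACTR1B (301.5 bp), DCTN2 (329 bp), DYNC1H1 (348 bp) and WDR34 (438.5 bp). All 7 were called lower, against 59.2% of the 2441 genes with such introns among all genes tested. Of the 26 others 5 were lower and 14 higher, against 33.5% and 40.0% of the 12237 other tested genes with introns. The paralogs ACTR1A and ACTR1B both have 11 exons but median introns of 945.5 and 301.5 bp. Spearman's rho between log2 difference and median intron length was 0.60 over the 33 genes and 0.21 over 14678 genes, and between log2 difference and GC content -0.26 and -0.19. Genes are not independent replicates, and all of these points come from the same 6 libraries.

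**Figure D5:**
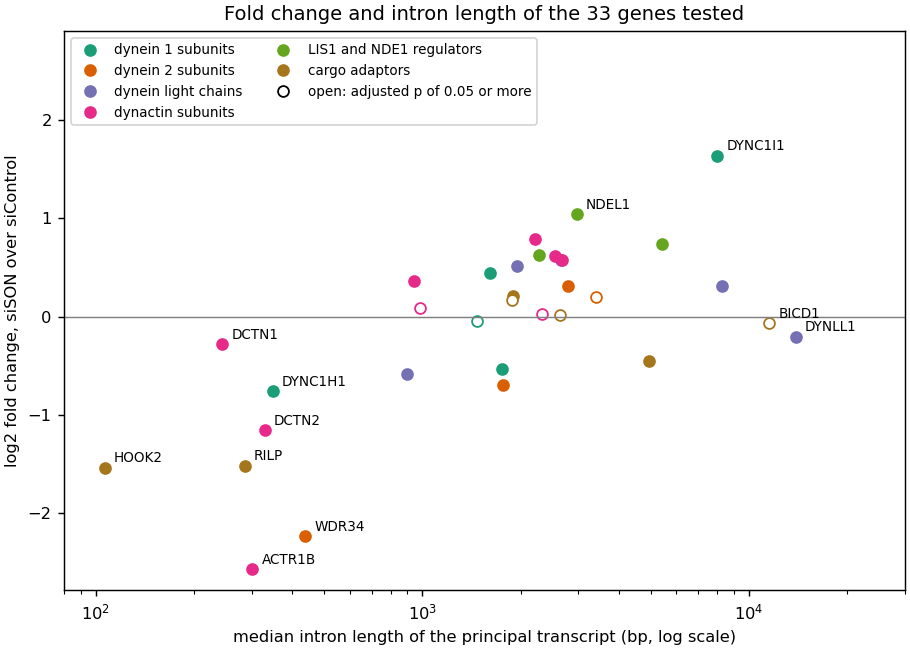
Log2 difference, siSON minus siControl, of the 33 genes tested against the median intron length of the principal transcript in bp (log axis). Colours show the role in the motor complexes, and open symbols mark genes not called. The 7 genes left of 500 bp all lie below 0, and the genes above 0 have median introns of 945.5 bp or more.

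Further genes that work with the motor, from lists of other adaptors (27 genes) and of dynactin and LIS1 partners (20 genes), changed about as often as the table. Among the other adaptors 23 were tested and 17 called (73.9%), 12 higher and 5 lower. Scaled by library size alone, 10 rose and 8 fell. FAM160B1, of the family that links Hook proteins to vesicles, rose from 64.2 to 169 CPM (log2 difference 1.39, adjusted p = 1.26e-08), and CDR2 rose from 42.3 to 110.5 CPM (1.38, adjusted p = 8.70e-09). RILPL2, a RILP relative linked to ciliary membrane traffic, rose from 50.1 to 91.0 CPM (0.86, adjusted p = 2.68e-07), while RILP itself fell. MAPK8IP1, a JNK scaffold that also binds motors, fell from 20.6 to 6.72 CPM (-1.62, adjusted p = 9.65e-08).

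Of the 20 dynactin and LIS1 partners all were tested and 14 called (70%), 9 higher and 5 lower. Scaled by library size alone, 7 rose and 8 fell, and with cyclic loess 6 moved each way. PAFAH1B2, a catalytic subunit of the enzyme in which LIS1 is the regulatory part, rose from 104.5 to 259 CPM (log2 difference 1.31, adjusted p = 4.09e-09). CLIP1, a plus-end tracking protein that binds dynactin and LIS1, rose from 196 to 331 CPM (0.76, adjusted p = 9.77e-08). CAPZB, a subunit of the capping protein at the barbed end of the dynactin filament, rose from 264 to 431 CPM (0.71, adjusted p = 3.00e-07), and MAPRE3, an end-binding protein, from 25.8 to 51.7 CPM (1.00, adjusted p = 3.29e-07). These lists were drawn up with earlier results of the data known and give no independent support.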

How the data were processed

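Gene counts for 6 RNA-seq libraries were deposited by the authors as 1 table of raw counts, with no normalization. Per the submitters' processing notes the tools were cutadapt 1.16, STAR 2.5.2a, featureCounts 1.6.2 and DESeq2 1.28.1, with build hg38. Their settings, the strand option and the handling of multi-mapped reads are not given in the sources used here. All 58735 identifiers matched GENCODE release 29, which gave coordinates, overlaps, introns and transcript lengths (APPRIS principal transcript).

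Genes were tested with edgeR 4.0.16 in R 4.3.3 (TMM, filterByExpr with minimum count 10, robust quasi-likelihood F test on group, Benjamini-Hochberg over 16591 genes, threshold 0.05). The code was tested on simulated data with far fewer changed genes than were called here, so that does not test the scaling. Paralog ratios used log2 counts with a pseudocount of 0.5 and an exact permutation test (scipy 1.17.1). Promoter sequences are from RefSeq. Floors are 3 counts of a library and cover counting error only.

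All 35 genes are named; SON, PLK4 and CETN2 are named as the altered genes, and from each of 3 further lists the 4 genes with the smallest adjusted p. The genes and lists were chosen with earlier results of these data known. Alternatives were DESeq2 1.42.0, RLE factors, library size alone, cyclic loess and voom in limma 3.58.1, no filter, a mean count of at least 50, the replicate number as a block, a pseudocount of 5 for the ratios, and each library left out.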

Additional observations from a re-analysis of the deposited data

How the results depend on the processing

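The number of these genes called ran from 24 to 28 over the 14 alternatives, and from 25 to 27 when 1 library was left out. It was 28 of 35 with no filter and 24 of 32 with a mean count of at least 50. With no filter SPDL1 was added as higher and DYNLRB2 as lower. Over the alternatives that tested DYNLRB2, its log2 difference ran from -3.41 to -1.13. Its adjusted p ran from 0.0389 to 0.295 (edgeR), so that call was not steady. DESeq2, RLE factors and limma-voom left every call as it was. Scaling moved more: the median log2 difference of the genes was -0.11 with library size alone, -0.066 with cyclic loess and 0.0014 with a mean count of at least 50. Signs turned for uncalled genes: DCTN3 (-0.11 with library size alone, -0.073 with cyclic loess), DCTN6 (-0.17 with library size alone, -0.028 with the mean count filter, -0.031 to 0.095 leaving out 1 library), BICD1 (-0.10 to 0.019 leaving out 1 library), SPDL1 (-0.027 with library size alone, -0.067 with cyclic loess) and CCDC88A (-0.19 with library size alone, -0.26 with cyclic loess, -0.046 with the mean count filter, -0.062 to 0.077 leaving out 1 library). Axonemal dyneins called were 7 with the mean count filter, which tests fewer genes, and 9 to 11 leaving out 1 library. The cause of the other shifts was not tested.

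Same-numbered libraries are linked by that number in the sample titles and by consecutive S numbers in the column headers. Their deviations correlated at 0.194, 0.0461 and 0.118, a mean of 0.119, against a mean of -0.0595 for different-numbered libraries. Whether same-numbered libraries share a batch was not tested. With the replicate number as a block 27 of these genes were called (15 higher, 12 lower), SPDL1 being added (log2 difference 0.16, adjusted p = 0.0443, edgeR). Of all genes 12313 were called with the block and 11888 without it. The paralog ratios have no blocked version. HOOK1 was below 3 counts in every library, and DYNLRB2 scattered between 2 and 29 counts in control libraries.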

Other observations

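Axonemal dyneins, the motors of beating cilia, are outside the cytoplasmic motor complexes. Most were read at low levels in these cells, though control means in the list reached 16.5 CPM. Of 18 genes listed 12 were tested and 11 called, 5 higher and 6 lower, and the split was 5 and 4 with cyclic loess. Over all genes tested 71.7% were called, 35.2% higher and 36.5% lower. DNALI1, a light intermediate chain of the inner arm, was 6.15 ± 0.39 CPM in control and 1.22 ± 0.255 CPM in siSON libraries (log2 difference -2.33, adjusted p = 2.61e-07, edgeR). The heavy chain DNAH10 was 1.03 ± 0.226 CPM in control and 0.118 ± 0.0205 CPM in siSON libraries (-3.10, adjusted p = 1.10e-05); its log2 difference ran from -3.30 to -2.24 over the alternatives, and it was not tested with a mean count of at least 50. DNAH7 fell from 1.53 to 0.619 CPM (-1.30, adjusted p = 0.000327). DNAH1 went the other way, from 3.56 to 6.87 CPM (0.95, adjusted p = 0.000122). The DNAH10 and DNAH7 values rest on few reads, at 5 to 8 and 28 to 42 counts in siSON libraries. The levels of all genes named here are far below those of the cytoplasmic heavy chain DYNC1H1.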
